A study of Mus musculus with 8 samples.

Results

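The BCL2 family was followed through 10 genes that decide at the mitochondrion whether a cell lives or undergoes apoptosis. They were the pro-survival genes Mcl1, Bcl2, Bcl2l1 (BCL-xL), Bcl2a1b and Bcl2a1d (copies of A1), the pore-forming genes Bax and Bak1, and the BH3-only genes Bcl2l11 (BIM), Bid and Pmaip1 (NOXA). The genes were chosen by name and not by a threshold on their values, but with earlier results of these data known. Each was read from the row of the expression table whose RefSeq identifier maps to its symbol. Of the 10 genes, 9 had such a row among the 24625 rows of the table, and no row was matched to Bcl2a1d.

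BAX and BAK perforate the outer mitochondrial membrane and release cytochrome c, which leads to caspase activation. The pro-survival proteins hold BAX and BAK in check, and BH3-only proteins relay stress, receptor or cytokine signals by occupying the pro-survival proteins or by activating BAX and BAK directly. Neutrophils are short-lived cells that depend on MCL1 and A1, both of which turn over rapidly, and survival cytokines such as G-CSF and GM-CSF lengthen their life at sites of infection.

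Expression was measured in 8 samples of neutrophils isolated from mouse lung, each on 1 Affymetrix Mouse Gene 1.1 ST array. The mice were wild type (WT) and 6 to 12 weeks old by the labels, while the study's methods give 6 to 8 weeks. By those methods, female C57BL/6J mice were bought to generate colonies, and the mice studied were matched for age and sex. Of the samples, 4 came from mice given a suspension of Streptococcus pneumoniae (SP) and 4 from mice given phosphate-buffered saline (PBS), with 2.3 µl of fluid for each g of mouse given intratracheally on the left side and lungs taken 24 h later. Cells were captured on magnetic beads through Ly6G, a neutrophil surface protein, from digests of the lungs. The study describes each array as a sample from a mouse, while the labels name no animal, so p-values measure the spread between these samples. Values are log2 expression, and differences are SP minus PBS in log2 units, where 1 unit is 2-fold. A gene was called when its limma p, adjusted over all rows by the Benjamini-Hochberg method, was at most 0.05. The comparison asks how mRNAs of the family in lung neutrophils differed between pneumonia and the saline control.

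The promoters of the A1 copies are shown first, because A1 had the largest difference among the members and because its copies are nearly identical in sequence. Windows run from 250 bases before to 50 bases after a gene's start, in RefSeq on GRCm38.p6, and a window was present for 11 genes, 9 members together with the further A1 copies Bcl2a1a and Bcl2a1c. Capitals mark matches, on either strand, to the PU.1 motif GAGGAAGT, the FOXO motif GTAAACA and the ATF4-C/EBP composite motif TGATGCAA. The first 3 lines are the A1 copies and the last is the first of the windows of Bcl2l11, shown as the member with a FOXO match.
Bcl2a1b (chr9:89199023-89199322, plus strand): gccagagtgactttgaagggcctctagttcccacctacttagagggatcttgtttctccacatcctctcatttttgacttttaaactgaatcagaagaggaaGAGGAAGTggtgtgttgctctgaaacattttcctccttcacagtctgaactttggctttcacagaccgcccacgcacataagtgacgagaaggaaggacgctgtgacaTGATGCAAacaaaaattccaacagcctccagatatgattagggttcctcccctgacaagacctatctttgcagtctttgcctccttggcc
Bcl2a1c (chr9:114329885-114330184, plus strand): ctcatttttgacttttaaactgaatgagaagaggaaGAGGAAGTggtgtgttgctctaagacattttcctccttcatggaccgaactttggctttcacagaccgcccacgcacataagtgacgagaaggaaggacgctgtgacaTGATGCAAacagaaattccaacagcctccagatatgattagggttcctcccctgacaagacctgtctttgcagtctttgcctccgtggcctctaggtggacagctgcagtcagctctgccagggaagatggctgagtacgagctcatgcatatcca
Bcl2a1d (chr9:88731801-88732100, minus strand): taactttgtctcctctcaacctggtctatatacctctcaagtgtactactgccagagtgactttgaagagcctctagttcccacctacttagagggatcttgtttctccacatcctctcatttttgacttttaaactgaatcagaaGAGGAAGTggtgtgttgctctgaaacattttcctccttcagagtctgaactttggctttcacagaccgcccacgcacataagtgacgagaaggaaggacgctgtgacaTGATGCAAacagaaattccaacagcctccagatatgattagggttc
Bcl2l11 (chr2:128125788-128126087, plus strand): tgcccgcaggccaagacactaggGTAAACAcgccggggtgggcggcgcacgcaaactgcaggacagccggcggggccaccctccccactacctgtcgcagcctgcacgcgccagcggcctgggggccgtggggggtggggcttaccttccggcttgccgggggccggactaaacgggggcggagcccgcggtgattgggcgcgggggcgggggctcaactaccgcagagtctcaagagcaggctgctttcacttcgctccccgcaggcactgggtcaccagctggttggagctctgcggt

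The PU.1 and ATF4-C/EBP motifs each occurred once in the windows of Bcl2a1a, Bcl2a1b, Bcl2a1c and Bcl2a1d. PU.1 is a transcription factor of the myeloid lineage, ATF4 acts in the integrated stress response, and FOXO factors are restrained by growth factor signalling. In Bcl2a1b the matches began at positions -148 and -40 from the start, and the FOXO match of Bcl2l11 at -227. No match overlapped another. Over all 32851 windows of the table, 3.20% held the PU.1 motif, 0.895% the ATF4-C/EBP motif and 3.65% the FOXO motif. The A1 windows are copies of 1 sequence and do not count as separate matches, since aligned stretches of Bcl2a1b and Bcl2a1a were identical at 254 of 256 positions (99.2%), of Bcl2a1b and Bcl2a1d at 247 of 256 (96.5%) and of Bcl2a1b and Bcl2a1c at 224 of 234 (95.7%). An AP-1 motif (TGANTCA, in 7.81% of windows) was found in Bcl2a1a, Bcl2a1b and Bcl2a1d, and an NF-κB motif (4.51%) in 1 of the windows of Bcl2l1. The NF-κB motif was absent from the A1 windows. Bak1 held the PU.1 motif on the opposite strand. No window of Mcl1, Bcl2, Bax or Bid held any of the 6 motifs searched, the last of which was the STAT motif TTCNNNGAA (8.30%). A match describes letters in these windows and is not evidence of binding.

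Across all rows, 44.1% were called, 21.5% higher and 22.6% lower in SP, and the median difference was 0.10, so a call alone was common. At least 2-fold, 6.37% of rows were called higher and 11.3% lower. In 27.2% of rows every SP value lay above every PBS value, and in 21.8% every SP value lay below. Array medians were 6.06 to 6.20 in PBS and 5.78 to 5.91 in SP, and setting them equal moved the median difference to 0.38 and the share of higher genes among calls from 48.9% to 77.9%. On the scale of the table, Xist, a gene active in females, read 12.01 to 12.71 over the arrays. The 3 Y-linked genes, which female mice lack, read 4.33 to 4.90, and they serve as a reading of background.

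Neutrophil markers were bright on every array, with a mean over 8 genes of 12.63 to 13.02 in PBS and 12.44 to 13.04 in SP, and the labelled cell type was borne out to that extent. Ly6g itself had no matched row. Of these 8 genes, 4 were called, 3 lower and 1 higher. The marker lists of several other lung cells also had means far above the Y-linked level. In PBS the mean of the club cell genes (13.07) was above that of the neutrophil genes (12.85), while in SP it was below (11.08 against 12.69). The study's methods report purity, judged on stained cytospins, for the pneumonia samples and give none for the PBS samples. Few other cells were seen there, and these mostly looked like alveolar macrophages. The mean over 7 ciliated cell genes was 9.78 to 10.71 in PBS and 6.78 to 7.57 in SP, and all 7 were called lower. Club cell genes (4 of 4 lower, 12.88 to 13.27 against 10.78 to 11.52), alveolar type 2 genes (6 of 6 lower, 12.29 to 12.80 against 10.22 to 11.68), endothelial genes (5 of 6 lower, 10.43 to 11.45 against 8.70 to 9.83) and B cell genes (7 of 7 lower, 7.95 to 8.96 against 5.89 to 7.20) moved the same way. Monocyte and macrophage genes were higher in 3 of 6 (8.32 to 9.12 against 8.71 to 10.03). Fewer cells of a type and less RNA per cell cannot be told apart in such samples, and the part of these cells in the values of the BCL2 family was not tested.

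Of the 9 measured members, 7 were called higher in SP and none was called lower, against 21.5% of all rows called higher and 22.6% lower. All 7 rose at least 2-fold, against 6.37% of all rows, and in 6 of the 9 every SP value lay above every PBS value, against 27.2%. The median difference of the 9 was 1.65, beside 0.10 over all rows. The list was chosen with earlier results of these data known, so these shares describe the members and are not a test. The 7 genes lay on both sides of the family's balance. They comprised 2 of 4 pro-survival genes, both pore-forming genes and all 3 BH3-only genes, while Mcl1 and Bcl2 were not called.

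**Figure D1:**
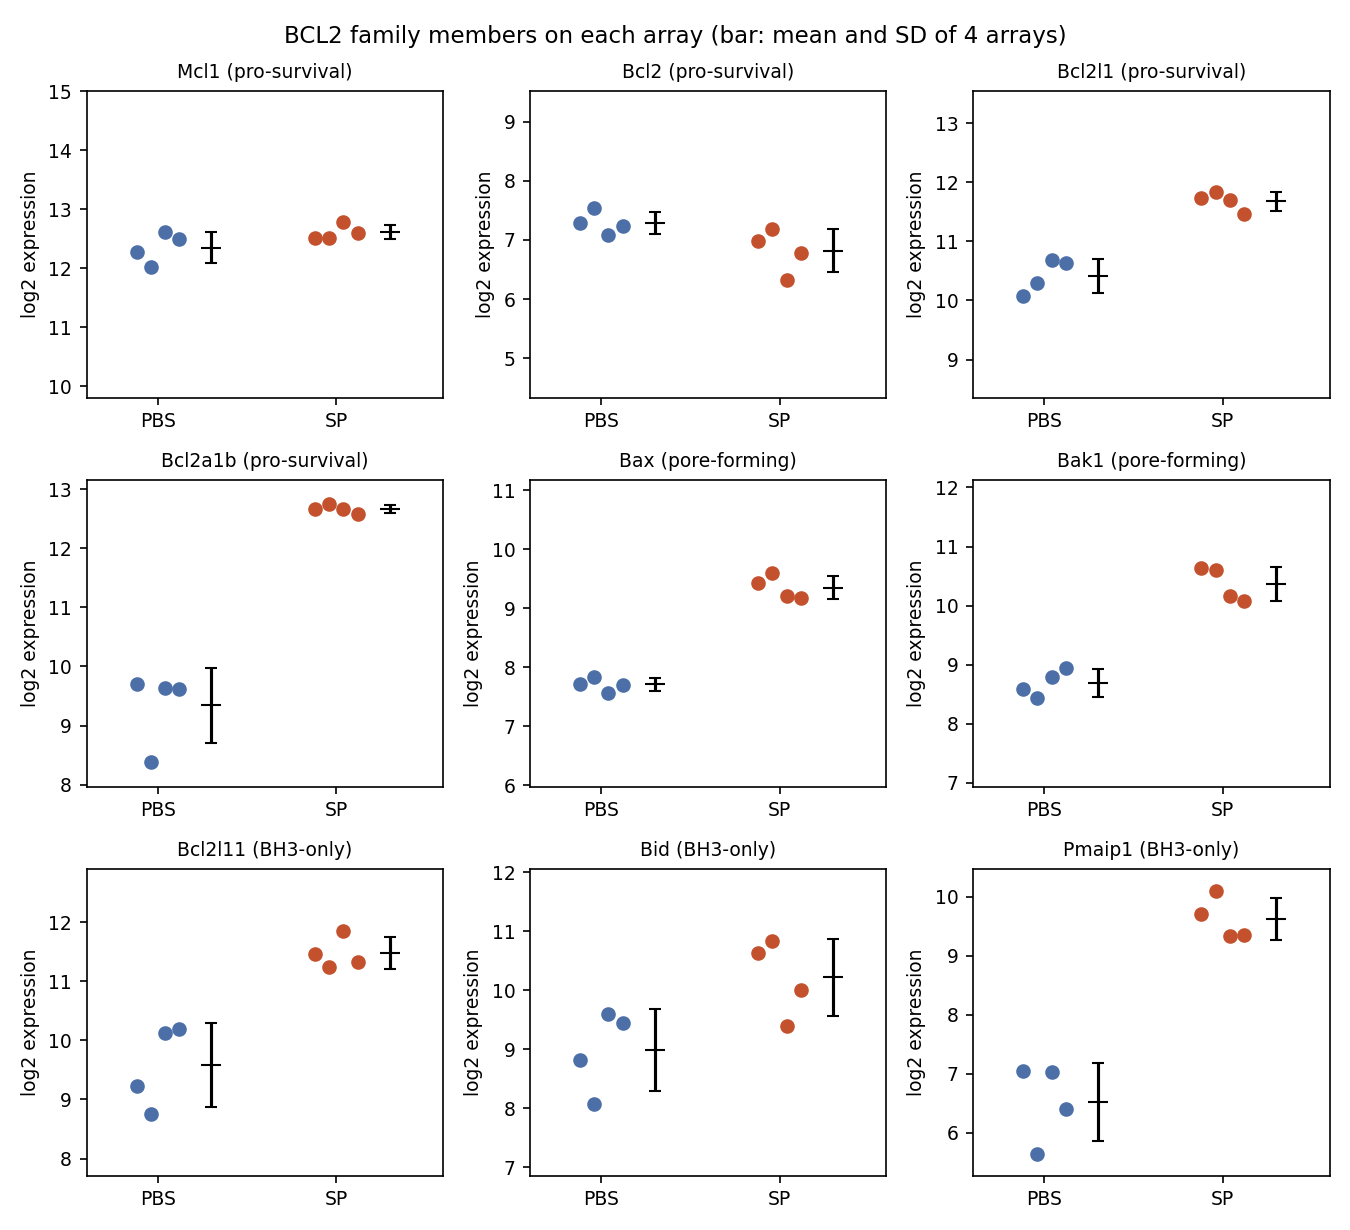
Log2 expression of the 9 measured members on each array, PBS in blue and SP in red, 1 point per array, with the mean and SD of 4 arrays beside the points. Each panel spans the same number of log2 units. Points of the groups are apart for Bcl2l1, Bcl2a1b, Bax, Bak1, Bcl2l11 and Pmaip1 and overlap for Mcl1, Bcl2 and Bid.

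Among the pro-survival genes, Bcl2a1b rose 10.04-fold, the largest rise of any member and larger than 99.5% of all rows. A1 binds BH3-only proteins in myeloid cells, and its gene is a target of NF-κB. Bcl2a1b (NM_007534) read 9.71, 8.38, 9.64 and 9.62 in PBS replicates 1 to 4 and 12.67, 12.75, 12.66 and 12.58 in SP replicates 1 to 4. PBS replicate 2 lay more than 1 unit below the other PBS arrays, the SP arrays had an SD of 0.07, and the groups did not overlap. The means were 9.34 ± 0.64 (SD, n = 4) and 12.67 ± 0.07, a difference of 3.33 with a standard error of 0.28 (limma adjusted p = 5.39e-05). Without PBS replicate 2 the difference was still 3.01. The SP values lay high on the scale, where values may be compressed, so the rise and the SP spread may be understated. Bcl2a1c (NM_007535), another copy with its own row, gave 8.21 ± 0.61 in PBS and 11.33 ± 0.20 in SP, a rise of 3.12 (8.70-fold, limma adjusted p = 7.38e-05). The copies share most of their sequence, so how far the probes separate Bcl2a1b, Bcl2a1c and the unmatched Bcl2a1a and Bcl2a1d is uncertain.

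Bcl2l1, which encodes BCL-xL and, by alternative splicing, a pro-apoptotic short form, rose 2.41-fold. Its row (NM_001289717) read 10.07, 10.29, 10.68 and 10.63 in PBS and 11.74, 11.84, 11.70 and 11.46 in SP. The lowest SP value exceeded the highest PBS value, and the means of 10.42 ± 0.29 and 11.68 ± 0.16 (SD, n = 4) differed by 1.27 (standard error 0.15, limma adjusted p = 0.00033). A value for the whole gene does not tell its splice forms apart.

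Mcl1 was not called. MCL1 is the family member on which the survival of resting neutrophils is known to depend. Its row (NM_008562) read 12.28, 12.03, 12.62 and 12.49 in PBS and 12.52, 12.52, 12.79 and 12.60 in SP, with overlapping groups. The difference was 0.25 with a 95% interval from -0.06 to 0.57 (limma adjusted p = 0.150). The row was at percentile 99.4 of mean level, where values may be compressed, so this difference may be understated. The same limit holds for Bcl2a1b in SP, whose mean of 12.67 was above both Mcl1 means (12.35 and 12.61). Whether compression affected either gene was not tested. Mcl1 passed the threshold only when array medians were set equal, where the difference was 0.54 (limma adjusted p = 0.0165). It was 0.0612 after quantile normalization (limma adjusted p = 0.638) and 0.14 without PBS replicate 2.

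Bcl2, which in blood cells is best known from lymphocytes, was not called either. The PBS arrays read 7.28, 7.54, 7.09 and 7.24 and the SP arrays 6.98, 7.19, 6.32 and 6.78 (NM_009741). The highest SP value lay above the lowest PBS value. The difference was -0.47 with a 95% interval from -0.90 to -0.04 (limma adjusted p = 0.0697), and it was -0.0434 after quantile normalization of the table. Without SP replicate 2 it was -0.60 and was called (limma adjusted p = 0.0341). Bcl2 was also called with the replicate number as a block (limma adjusted p = 0.0208), though the numbers were not taken to pair the samples. SP replicate 3 held both the lowest Bcl2 value and the lowest mean of the B cell genes (5.89). It also had the lowest SP means of the ciliated (6.78), club (10.78), alveolar type 2 (10.22) and endothelial (8.70) genes. In PBS, Bcl2 was highest on replicate 2 (7.54), while the mean of the B cell genes was highest on replicate 1 (8.96). Whether any of these cells contribute to the Bcl2 values was not tested.

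Both pore-forming members rose more than 3-fold. Bax (NM_007527) read 7.72, 7.83, 7.56 and 7.70 in PBS and 9.43, 9.60, 9.21 and 9.17 in SP, and Bak1 (NM_007523) read 8.59, 8.43, 8.79 and 8.95 in PBS and 10.64, 10.61, 10.17 and 10.07 in SP. For both, all SP values lay more than 1 unit above the highest PBS value. Bax rose by 1.65 (3.13-fold, standard error 0.11, limma adjusted p = 2.27e-05) and Bak1 by 1.68 (3.20-fold, standard error 0.17, limma adjusted p = 0.00013). Either protein can form the pore, and both must be lost before most cells resist mitochondrial apoptosis.

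Of the BH3-only members, Pmaip1 rose most. Its product NOXA binds MCL1 and A1 and promotes the degradation of MCL1. The Pmaip1 row (NM_021451) read 7.04, 5.65, 7.03 and 6.41 in PBS and 9.71, 10.10, 9.33 and 9.35 in SP. Even the lowest SP value was above the highest PBS value by more than 2 units. The rise of 3.09 (8.50-fold, standard error 0.32, limma adjusted p = 0.00016) was larger than the differences of 99.3% of all rows.

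Bcl2l11 encodes BIM, which binds every pro-survival member and is induced when cytokine support is withdrawn. Its row (NM_001284410) read 9.22, 8.76, 10.13 and 10.20 in PBS and 11.46, 11.25, 11.86 and 11.33 in SP. The PBS arrays were spread over more than 1 unit, yet the groups did not overlap. The difference was 1.90 (3.73-fold, standard error 0.33, limma adjusted p = 0.00211), and its row does not separate the known splice forms of BIM.

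Bid is activated when caspase-8 cleaves its product after death receptor signalling. Bid (NM_007544) read 8.82, 8.08, 9.59 and 9.44 in PBS and 10.63, 10.84, 9.40 and 10.004 in SP. SP replicate 3 lay below PBS replicates 3 and 4, so the groups overlapped. The rise of 1.23 (2.35-fold, 95% interval 0.30 to 2.17, limma adjusted p = 0.0382) was the least certain of the 7 calls, and it was lost in 7 of 16 alternatives, with limma adjusted p-values of 0.0168 to 0.0952 when single arrays were left out. The arrays whose removal ended the call were PBS replicates 1 and 2 and SP replicates 1, 2 and 4. Its exact permutation p, two-sided over the 70 arrangements of the arrays, was 0.0857, whereas the members whose groups were apart each reached 0.0286, the smallest these arrangements allow.

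Among the other genes of the family, of 16 listed, 13 had a row, of which 2 were higher, 4 lower and 7 not called, with a median difference of 0.02 beside 0.10 over all rows. These 6 calls of 13 were a share near the 44.1% of all rows called. The higher genes were Bcl2a1c and Bcl2l15, a weakly pro-apoptotic relative, which went from 4.49 ± 0.03 to 6.59 ± 0.58 (SD, n = 4), a rise of 2.10 (at least 4.29-fold, limma adjusted p = 0.000333). All its PBS values lay within the background range given above, so the fold is a lower bound. Bok, the third pore-forming gene of the family, fell by 2.49 on the log2 scale, from 7.89 ± 0.13 to 5.40 ± 0.14 (5.61-fold, limma adjusted p = 2.71e-06), opposite to Bax and Bak1. Only 1.3% of rows had differences at or below that of Bok, whose groups were apart. Bok moved in the same direction as the epithelial and endothelial genes above, and the part of those cells in its values was not tested.

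The 3 other genes that fell were Bcl2l14 (-0.80, limma adjusted p = 0.00111), the BH3-only gene Bik (-0.57, 0.0086) and the BH3-only gene Bmf (-0.32, 0.0498). Of these, Bmf kept its call in 2 of 16 alternatives, lost it with the removal of any single array, and had a difference of 0.080 after quantile normalization. Bik missed the threshold when array medians were set equal and after quantile normalization. Bbc3 encodes PUMA, a p53 target, and went from 6.60 ± 0.11 to 7.23 ± 0.65 with no overlap of the groups, but its difference of 0.63 was not called (95% interval -0.02 to 1.28, limma adjusted p = 0.0992). Hrk (0.36), Bcl2l13 (0.28), Bad (0.06), Bnip3 (0.02), Bnip3l (-0.02) and Bcl2l10 (-0.02) were not called. Bbc3, Hrk, Bad and Bcl2l13 passed the threshold with array medians set equal, and Bbc3 (0.32) and Hrk (0.44) also without SP replicate 3. After quantile normalization Bbc3 (1.01, limma adjusted p = 0.0438) and Bad (0.51, 0.0281) were called higher and Bnip3l lower (-0.26, 0.0107). Bnip3, Bnip3l and Bcl2l10 turned sign between alternatives, and Bnip3 was called lower without SP replicate 3 (-0.29, limma adjusted p = 0.0472).

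**Figure D2:**
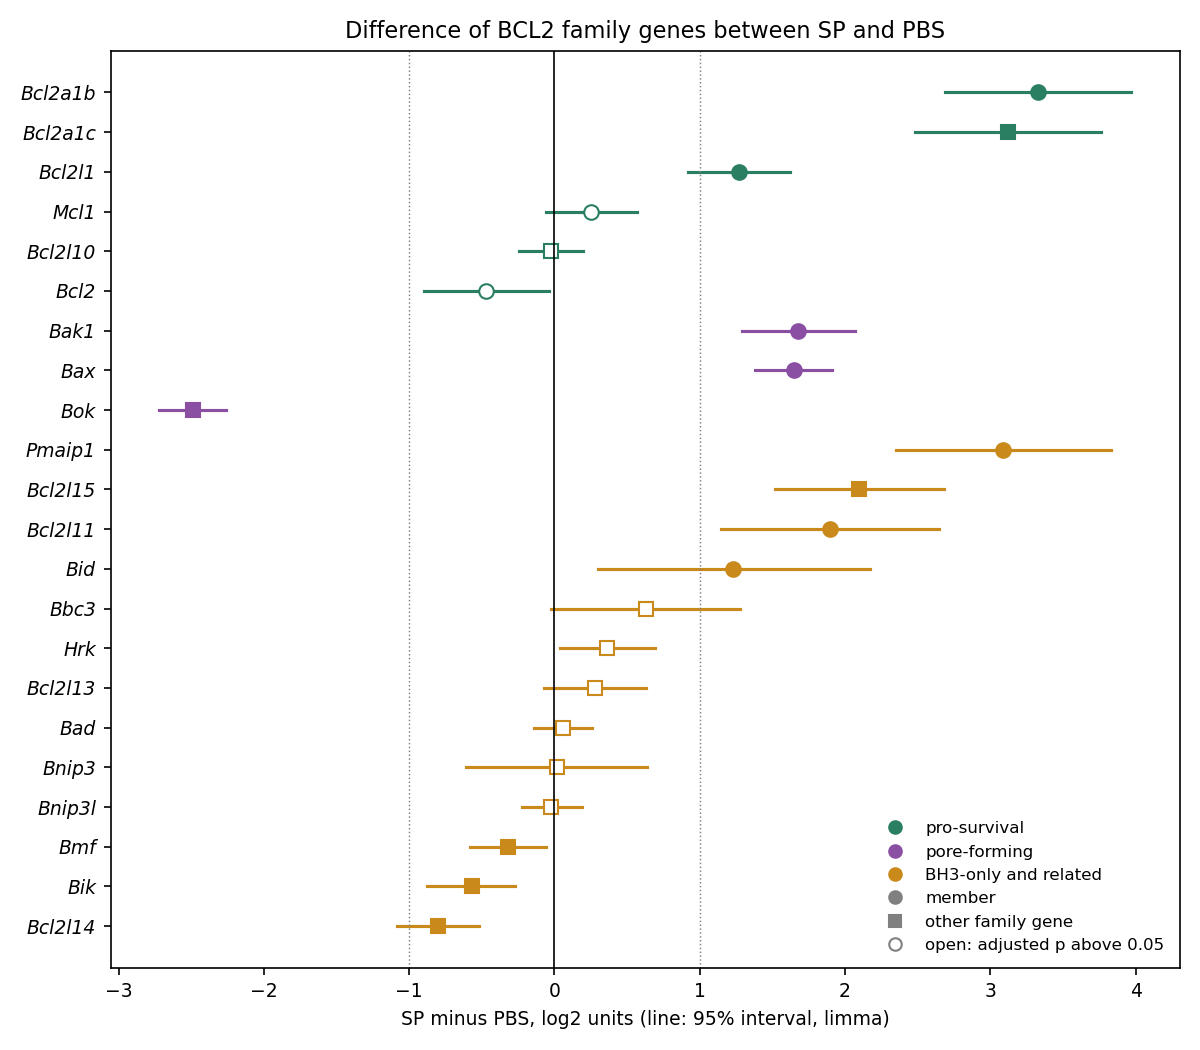
SP minus PBS difference in log2 units for the 22 measured BCL2 family genes, ordered within roles, with 95% limma intervals as lines and dotted lines at 2-fold. Circles are members and squares are other family genes, filled where the adjusted p is at most 0.05. Bcl2a1b, Bcl2a1c and Pmaip1 lie furthest to the right, and Bok is the only gene beyond 2-fold on the left.

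Downstream of BAX and BAK, the calls fell in both directions and only Endog passed 2-fold. Of 6 genes for the apoptosome and released mitochondrial proteins, 3 rose, 1 fell and 2 were not called, with a median of 0.32, beside 21.5% of all rows called higher and 22.6% lower. Apaf1, the scaffold that cytochrome c assembles, rose by 0.74 (1.67-fold, limma adjusted p = 0.0211), Diablo, an antagonist of IAPs, by 0.51 and Cycs, cytochrome c itself, by 0.43. Endog, a mitochondrial nuclease, fell by 1.38 on the log2 scale (2.61-fold, limma adjusted p = 0.0037). Its SP values of 4.65, 4.59, 5.07 and 5.09 lay in or just above the background range, so this fold may understate the fall. The calls of Apaf1 and Diablo were lost without PBS replicate 1 or PBS replicate 2, and that of Diablo also without SP replicate 1 or SP replicate 2. The call of Cycs was lost after quantile normalization, where the difference was 0.20 (limma adjusted p = 0.224).

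Caspases and their inhibitors together gave 9 calls among 12 genes, 7 higher and 2 lower, with a median difference of 0.82, beside 44.1% of all rows called. Casp8, the initiator caspase of death receptors that cleaves BID, went from 10.88 ± 0.14 to 12.44 ± 0.04 (SD, n = 4), a rise of 1.56 (2.96-fold, limma adjusted p = 8.32e-06). Casp9, the caspase of the apoptosome, rose by 0.85 (1.80-fold, limma adjusted p = 0.0113). Casp2 fell by 0.30 on the log2 scale, a call that was lost under both other scalings and with a robust prior.

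Most of the listed inhibitors of cell death rose as well. Cflar encodes c-FLIP, which blocks caspase-8 at death receptors, and it went from 9.70 ± 0.12 to 12.10 ± 0.23 (SD, n = 4), a rise of 2.39 (5.26-fold, limma adjusted p = 6.76e-06). A second row of Cflar (NM_001289704) differed by 2.73. Birc2 (1.26, limma adjusted p = 5.94e-05) and Birc3 (1.20, 0.00565), the cellular IAPs, and Xiap (0.79, 0.000505), a direct inhibitor of caspases, were also higher. Among inhibitors of apoptosis as listed, 4 rose, 1 fell and 1 was not called, beside 21.5% of all rows called higher.

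Of 5 measured genes for the turnover of MCL1 protein, 3 were called, 1 higher and 2 lower, beside 44.1% of all rows called. Huwe1, a ubiquitin ligase for MCL1, fell by 1.15 on the log2 scale (2.22-fold, limma adjusted p = 0.000917) and Btrc, the F-box protein that recognises phosphorylated MCL1, by 0.67. Trim17, a further ligase for MCL1, rose by 0.74. The other 2 of 5 measured genes were not called, and the median was -0.24. Of 5 mitochondrial channel and fission genes, 2 were called, a share near the 44.1% of all rows called. Vdac1 fell by 1.02 and Vdac2, a channel that binds BAK, rose by 0.48. The call of Vdac2 was lost after quantile normalization.

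Transcription factors known to control family genes gave 5 higher, 2 lower and 3 not called of 10, with a median of 0.40, beside 21.5% of all rows called higher and 22.6% lower. Ddit3 (CHOP), which is induced by ATF4 in stressed cells and controls Bcl2l11, rose by 1.89 (3.70-fold, limma adjusted p = 0.00311). Nfkb1, of the NF-κB family that drives A1, rose by 1.45 (2.72-fold, limma adjusted p = 9.41e-05), and Atf4 rose by 0.85 (1.80-fold, limma adjusted p = 0.00101). Foxo1, an activator of Bcl2l11, fell by 1.28 on the log2 scale (2.42-fold, limma adjusted p = 0.00442). These are mRNA levels and carry no information on the activity of the factors.

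Receptors through which cytokines and death ligands act on neutrophils gave 5 higher genes, none lower and 3 not called of 8, with a median difference of 0.84, beside 21.5% called higher and a median of 0.10 over all rows. Fas, the death receptor upstream of caspase-8, went from 9.39 ± 0.21 to 11.58 ± 0.23 (SD, n = 4), a rise of 2.19 (4.57-fold, limma adjusted p = 1.65e-05). Il3ra, the IL-3 receptor subunit, rose by 1.39, Csf2rb2, a beta subunit of the same receptor, by 1.30 and Ifnar1, of the type I interferon receptor, by 1.19. The fifth higher gene was Csf2rb, outside the naming rule, with a difference of 0.47 (limma adjusted p = 0.0474). The 3 not called, also outside that rule, included Csf3r, the receptor of G-CSF (-0.17, limma adjusted p = 0.255). The others were Csf2ra, a receptor subunit for GM-CSF (0.49, limma adjusted p = 0.171), and Tnfrsf1a (0.21, limma adjusted p = 0.342).

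**Figure D3:**
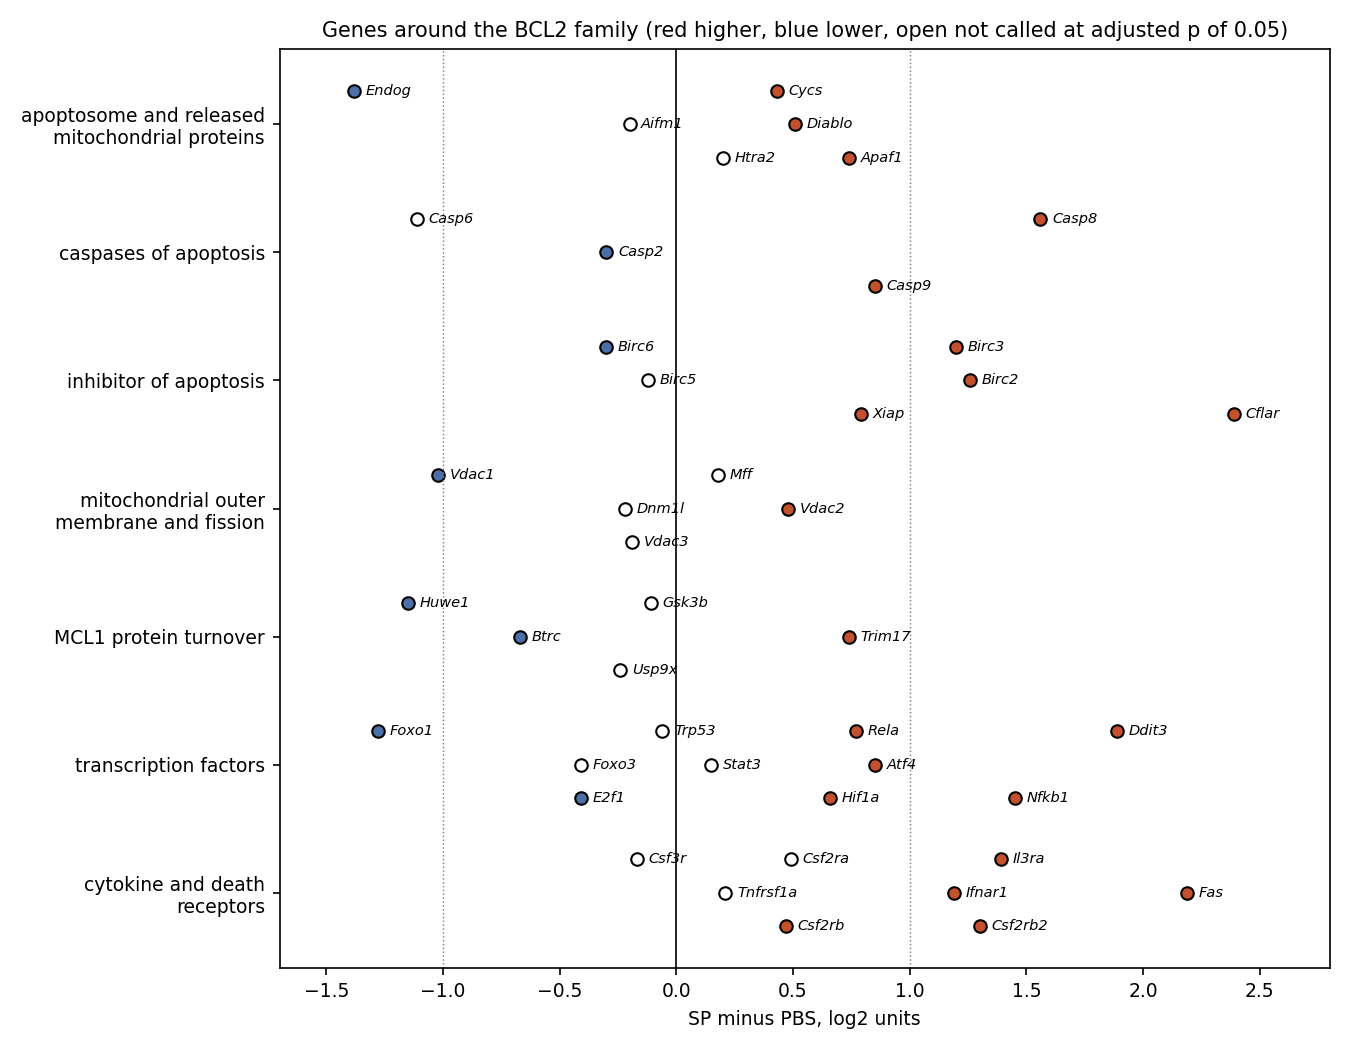
SP minus PBS difference in log2 units of genes in 7 lists around the family, each point a gene, red where called higher, blue where called lower and open where not called, with dotted lines at 2-fold and small vertical offsets for legibility. Cflar, Fas and Ddit3 lie furthest to the right, and Endog and Foxo1 furthest to the left.

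Some arrays were low or high for several members at once. PBS replicate 2 was the lowest PBS array for 6 of the 9 members, among them Bcl2a1b, Bcl2l11, Bid and Pmaip1, which lay 0.96, 0.82, 0.90 and 0.88 units below their group means. It was the highest PBS array for 2 members, Bcl2 and Bax, which lay 0.26 and 0.13 units above theirs. The same array had the lowest mean of neutrophil genes in PBS (12.63) and the highest PBS means of ciliated (10.71), club (13.27), alveolar type 2 (12.80) and endothelial (11.45) genes. SP replicate 2 was the highest SP array for 6 members, and it had the lowest SP mean of neutrophil genes (12.44). Leaving out single arrays left 6 or 7 members called. The part of cell mixture in this spread was not tested.

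**Figure D4:**
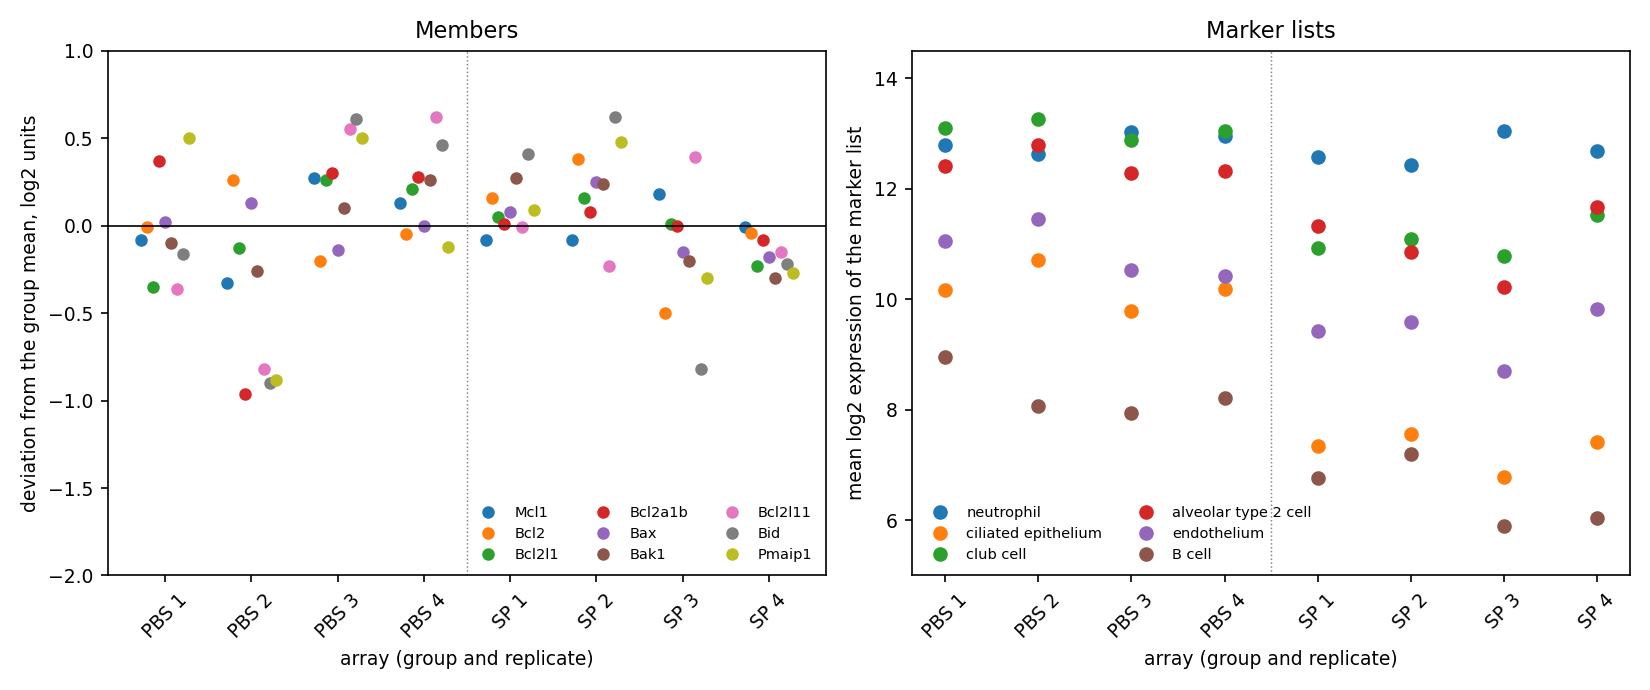
Left, deviation of each member from its group mean on each array, in log2 units, 1 colour per gene. Right, mean log2 expression of 6 marker lists on each array. PBS replicate 2 has 4 members between 0.82 and 0.96 units below the mean, and the ciliated, club, alveolar, endothelial and B cell lists are lower in all SP arrays than in any PBS array.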

How the data were processed

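RNA of 8 samples of lung neutrophils, 4 PBS and 4 SP as named in the titles, was hybridised to 1 array each. The deposited values are log2 expression, which the authors produced by robust multi-array averaging (the submitters' processing notes name Affymetrix Expression Console, RMA and Partek) with adjustment for GC content, quantile normalization and median polish over custom gene mappings. Such values are relative within an array and may be compressed near the top, and signal over background limits the precision of dim genes. The genome build of the mappings is not given in the sources used here. The table held 24625 rows and no missing values, and no arrays were identical. Rows were named through RefSeq genes of GRCm38.p6 (80.9% matched), and the row with the highest mean stood for a symbol. SP was compared with PBS by limma 3.58.1 in R 4.3.3 (lmFit and eBayes, two-sided, Benjamini-Hochberg adjustment over all rows), with thresholds of 0.05 and 2-fold, and the code was tested on simulated data. The members and lists were chosen with earlier results of these data known. All measured family genes are named, and in other lists up to 4 called genes with the largest differences. Csf2rb, Csf3r, Csf2ra and Tnfrsf1a are named besides, and were chosen after their values were seen. Some listed genes are not reported here singly. Marker lists of 12 cell types were read, of which 5 are given only here: the lists of alveolar type 1 (4 of 5 lower), fibroblast (2 of 6 lower), T cell (2 of 6 higher), alveolar macrophage (2 of 4 lower, 1 higher) and eosinophil (1 of 4 higher) genes. Alternatives were the methods' one-way test, a robust prior with trend, a replicate block, array weights, arrays centred on their medians, quantile normalization, dim rows left out, 1 row per symbol, and each array left out in turn. MicroRNA arrays were not analysed here.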

Additional observations from a re-analysis of the deposited data

Results flagged for a closer look

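For each of 59 genes picked by the naming rule, the highest or lowest array of a group was examined. A gap to its nearest neighbour that took up most of the group's range was looked for. Of 118 groups of 4 arrays, 9 showed such a gap, and chance gives about 1 in 20 groups, or 5.9. Among the members this was the Bcl2a1b value of PBS replicate 2, at 8.38 where the next PBS array had 9.62. SP replicate 3 stood apart in 6 genes. It was lowest for Bmf (7.02, next 7.37), Btrc (8.78, next 8.98) and the ciliated cell gene Tppp3 (9.17, next 9.94), and highest for Trim17 (8.39, next 7.69), Nfkb1 (11.94, next 11.44) and Atf4 (10.44, next 10.04). The Bcl2l15 value of PBS replicate 1 was 4.44 against 4.50 in the next array, and the Cflar value of PBS replicate 4 was 9.53 against 9.75.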

How the results depend on the processing

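Bcl2l1, Bcl2a1b, Bax, Bak1, Bcl2l11, Pmaip1, Bcl2a1c and Bok kept their direction and their calls in all 16 alternatives. Called members numbered 6 to 7 without single arrays (main 7) and 6 to 8 otherwise, and members at 2-fold 6 to 7 in both. Other family genes called numbered 5 to 8 without single arrays (main 6) and 3 with dim rows left out, where fewer genes were tested. Caspase and IAP genes called numbered 8 to 10 without single arrays. All rows called numbered 8200 to 10907 without single arrays and 18255 with centred arrays (main 10860), and rows at 2-fold 3982 to 4657 without single arrays (main 4341). With arrays centred, the difference of Bcl2l10 was 0.26, of Bnip3l 0.26 and of the neutrophil gene S100a8 0.0993, each above 0 where it was below 0 before. After quantile normalization Bmf was 0.080. Bnip3 was -0.31 with array weights. Without single arrays Bnip3 ranged from -0.29 to 0.16, Bcl2l10 from -0.0936 to 0.0183 and Bnip3l from -0.0834 to 0.0255. The cause was not tested. Deviations of same-numbered samples had correlations of 0.02, 0.03, 0.35 and -0.27, above 0.1 in 1 of 4 pairs, so the numbers were not taken to pair the samples. With the replicate number as a block, 7 members were called, 6 of them at 2-fold, with 9842 rows in all. Bid was then at a limma adjusted p of 0.0971 and Bcl2 at 0.0208.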
